A study of Mus musculus with 10 samples.

Results

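The comparison described here set the subcutaneous biopsy of a diabetic mouse against that of a control mouse, neither of which carried a graft. It used 2 of the 10 arrays of the series, 1 per condition, chosen by their labels alone. On these arrays 45037 of the 45101 probe sets were compared, after 64 control probe sets were left out, and 34945 of them carried 1 gene symbol, which gave 18193 genes. The series as a whole followed rat islets transplanted under the skin in a plasma scaffold, without (PSI) or with fibroblasts (PSI-F), on Affymetrix Mouse Genome arrays of total RNA. All mice were young male Swiss nu/nu, an immunodeficient strain that lacks a normal thymus and hair coat. The Diabetic mouse had received a single intraperitoneal injection of streptozotocin, which destroys beta cells, had passed a threshold of non-fasting blood glucose, and was sampled about a week or more later without a graft. The Control mouse was healthy and not transplanted. The 8 graft arrays, 1 PSI and 1 PSI-F array at each of days 1, 3, 7 and 10, came from mice that had been made diabetic in the same way before transplantation. How many mice gave RNA to each array, how deep the biopsy went and at what hour it was taken are not given in the sources used here.

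With 1 array per condition there was no replicate of either, so no test could be made and no p-value is given. Every value below describes these arrays, and the 8 graft arrays served as a yardstick of how far arrays of this series lay apart. Values are levels on the log2 scale of the RMA summary (robust multi-array average), and a difference is the Diabetic level minus the Control level, so that 1 is 2-fold and 2 is 4-fold. For each gene the probe set used was the one whose mean over the 10 arrays was highest. Levels of different genes were not set against each other, since each probe set has its own brightness.

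The biopsies held more than subcutis. The level of Krt10, a keratin of the upper epidermis, was 11.76 in Control and 11.10 in Diabetic, and Krt35, a keratin of the hair cortex, was at 9.51 and 9.46. Acta1, the actin of skeletal muscle, reached 12.65 and 12.87, and the fat hormone gene Adipoq 7.31 and 6.76. Cd68 of macrophages was at 4.39 and 4.01, below the 6.55 to 8.23 of the 8 grafts. The insulin gene Ins2 was at 2.27 and 3.13, against 7.70 to 10.60 in the grafts, and the T cell gene Cd3e was at 2.95 and 3.22. Skin, hair follicle, muscle and fat were therefore all in the RNA, and for every group of genes below fewer cells of a type and less RNA per cell cannot be told apart.

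Insulin acts on muscle, fat and skin through the kinase Akt, which keeps the FoxO transcription factors out of the nucleus. When insulin is lacking, FoxO factors enter the nucleus and switch on genes of fuel saving and protein breakdown, and circulating glucocorticoids, which rise in untreated insulin deficiency, act through their receptor on many of the same genes. The synthesis of fatty acids and sterols, driven by insulin through the SREBP factors, and the growth of epidermis and hair are known to decline in fasted or insulin-deficient animals.

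At 4-fold, 219 probe sets were higher in Diabetic and 319 were lower, which is 0.486% and 0.708% of those compared. At 2-fold the counts were 1761 (3.91%) and 2502 (5.56%). Of the 538 probe sets that lay 4-fold apart, 505 (1.12% of all) lay further apart than the PSI-F and PSI grafts of any same day, and 450 (0.999% of all) further apart than the whole range over the 8 grafts. Counted by gene, 86 (0.473%) were 4-fold higher and 150 (0.824%) 4-fold lower, and 2004 genes (11.0%) lay 2-fold apart in either direction. The same-day graft pairs held between 133 and 520 genes at 2-fold. The spread of the difference over genes was 0.65 (SD, n = 18193 genes on 1 pair of arrays), against 0.26 to 0.49 in the 4 graft pairs.

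The genes far apart were set against the range of the 8 grafts. Each set was chosen by these same levels, so the array chosen as high tends to lie outside, and the counts test nothing. Among the 81 genes that were 4-fold higher in Diabetic and had a level of at least 5 there, only the Diabetic array lay outside the range of the 8 grafts for 38, and only the Control array for 5. Among the 113 genes that were 4-fold lower, with that level in Control, the counts were 17 for Diabetic alone and 41 for Control alone. Over all 8331 genes with a level of at least 5 on the higher of both arrays, the counts were 2292 and 1794. Both arrays lay outside the graft range for 36 of the 81 genes, 46 of the 113 and 2324 of the 8331. Second probe sets were compared as well, which says nothing of the mice. Of 42 genes with several probe sets at that level whose brightest one lay 4-fold apart, the next brightest pointed the same way in 42. It was 2-fold apart the same way in 39. Over all 2771 genes with several such probe sets these shares were 80.2% and 18.2%. Probe sets below that level on both arrays did not enter, so the filter favours agreement and dim probe sets that disagree are not counted.

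The gene furthest up was Trim63, which encodes the ubiquitin ligase MuRF1 that tags muscle proteins for breakdown. Its level was 6.67 in Control and 10.93 in Diabetic, a 19.1-fold difference, while the 8 grafts lay between 6.86 and 7.68 with a median of 7.41. The Diabetic array was thus far above all other 9, which lay close together. Galnt15, a glycosyltransferase gene, went from 3.26 to 7.30, and Zbtb16, a zinc finger factor induced by glucocorticoids, from 4.22 to 7.93. Klf15, a glucocorticoid-induced regulator of amino acid and glucose metabolism, stood at 4.73 and 8.12, with all grafts at or below 5.45. Of the 15 genes furthest up, 14 lay above every graft in Diabetic and 14 lay further apart than any same-day graft pair. The exception to both was Ankrd1, a stress-responsive protein of the muscle sarcomere, at 1.80 in Control and 5.06 in Diabetic but between 3.21 and 9.06 in the grafts. The other members of that group, Fam107a, Klhl30, Angptl7, Cebpd, Lmod2, Pdk4, Inmt, Rbp7, Fkbp5 and Slc2a3, lay 2.93 to 3.68 apart. For Zbtb16, Fam107a and Slc2a3 a probe set with a lower signal lay between -0.08 and -0.06.

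The 15 genes furthest down came from several cell types. Rnase2b, an eosinophil-type ribonuclease gene, was at 7.18 in Control and 1.88 in Diabetic, and the grafts lay between 2.77 and 5.25, so both biopsies were outside the graft range on opposite sides. Thrsp, a gene that follows the rate of fatty acid synthesis, was at 7.03 and 3.42 with the grafts from 6.40 to 8.40, and Lrat, which stores retinol as its ester, was at 6.35 and 2.47. The endothelial apelin receptor gene Aplnr was at 6.59 and 3.22. The endothelial and lymphatic list leaned the other way, with 9 of 50 genes (18%) 2-fold higher and 4 (8%) lower. These shares stood beside 4.12% and 6.89% of all genes, and the list median was 0.30. Ppp1r3b, a subunit that directs a phosphatase to glycogen, differed by -3.38 from a Control level of 5.52. For Thrsp, Aplnr and Ppp1r3b the Control array lay at the level of the grafts or above and the Diabetic array below all of them. The collagenase gene Mmp13 was at 6.29 and 2.49. Krtap4-2, a keratin-associated protein gene of the hair shaft, was at 6.91 and 3.17 while the grafts ran from 1.22 to 6.95. The other members, 2310057N15Rik, Lyg1, Cmah, Krtap13, Fam111a, Nabp1, Car6 and Gm11563, lay between -5.20 and -3.29. Other probe sets of some of these genes differed far less. The smallest differences were -0.05 for Thrsp, -0.29 for Lrat, -0.81 for Aplnr, -0.02 for Cmah and -0.68 for Nabp1.

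Genes known to answer to glucocorticoids or to FoxO factors were higher as a group. Of 50 such genes measured, 28 (56%) were 2-fold higher and 2 (4%) 2-fold lower, against 4.12% and 6.89% of all genes, and 10 were 4-fold higher. Members of this and the other lists were chosen with earlier results of these data known, so such shares describe the lists and test nothing. The median difference was 1.19, beside 0 over all genes and -0.21 to 0.09 over the same genes in the 4 graft pairs. The median level of the list was 6.47 in Control, 7.98 in Diabetic, and from 6.32 to 6.90 over the 8 grafts. The Diabetic array therefore stood above all other 9, and in 35 of the 50 genes it was above every graft. Control was above every graft in 5 of them and below every graft in 12. Over all genes, Diabetic was above all 8 grafts in 22.7% and below in 22.5%, and Control above in 21.9% and below in 17.5%, so the 12 genes with Control below (24%) were near the share of all genes.

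**Figure D1:**
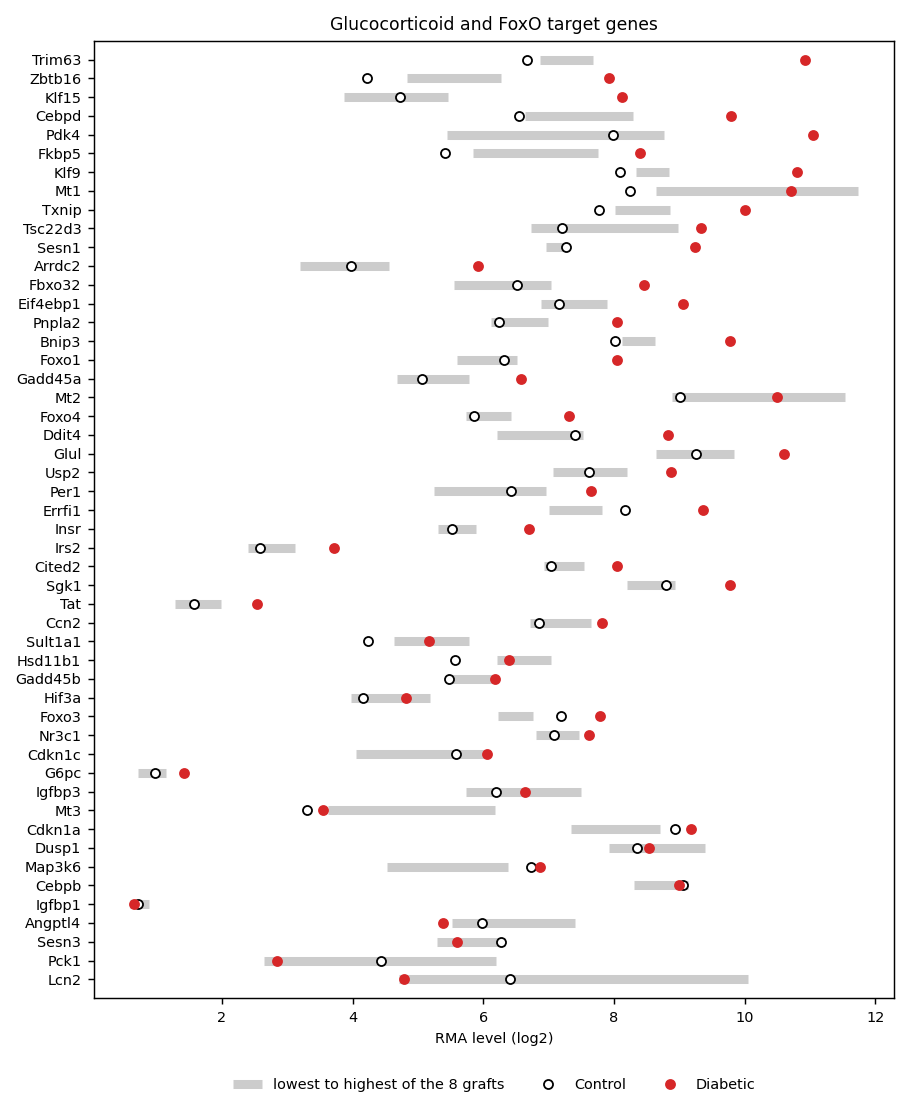
RMA levels (log2, x axis) of the 50 glucocorticoid and FoxO target genes, with Control as open circles, Diabetic as red circles and the range of the 8 grafts as grey bars. Genes are ordered by the difference; in 35 of 50 the red circle lies to the right of the grey bar.

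Within the list, the receptor-induced regulators and the FoxO-driven effectors were both among the genes furthest apart. Cebpd, a transcription factor of the acute phase and of fat cell formation, stood at 6.55 and 9.78, and Fkbp5, a chaperone that restrains the glucocorticoid receptor, at 5.41 and 8.39. Tsc22d3, which encodes the anti-inflammatory protein GILZ, was at 7.20 and 9.33, and Klf9, a Krüppel-like factor gene induced through the receptor, at 8.09 and 10.80. Each of these was above all 8 grafts in Diabetic. Of genes under FoxO control, Pdk4, the kinase that closes pyruvate dehydrogenase and spares glucose, was at 7.98 and 11.04. Fbxo32, the second muscle ubiquitin ligase (atrogin-1), was at 6.52 and 8.46 with the grafts from 5.56 to 7.04, and Txnip, an inhibitor of glucose uptake, at 7.77 and 10.01. Foxo1 itself was at 6.32 and 8.04. Sesn1, a sestrin that lowers mTOR activity, was at 7.26 and 9.24, while all 8 grafts lay between 6.96 and 7.25.

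Not all members were higher, and 6 of the 50 were below their Control level. The gluconeogenic gene Pck1, known for its repression by glucocorticoids in fat, was at 4.43 in Control and 2.85 in Diabetic, inside the graft range of 2.64 to 6.20. Lcn2, a lipocalin of epithelia and neutrophils, was at 6.41 and 4.79. Sesn3, another sestrin gene, differed by -0.66 and Angptl4 by -0.60. The glucocorticoid receptor gene Nr3c1 was at 7.08 and 7.63, a difference of 0.55, and Hsd11b1, whose enzyme regenerates active glucocorticoid in tissues, was at 5.57 and 6.39. Of the members, 3 are also in the muscle lists, and over the 47 that are not the median was 1.18 with 26 genes 2-fold higher. 

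The promoters of 40 of the 50 genes, 51 promoters in all, were matched in RefSeq (GRCm38.p6), and the 250 bases before each start were searched on both strands. The FoxO core motif TGTTTAC was found in 4 of the 51 promoters (7.84%), those of Trim63, Klf9, Txnip and Hsd11b1, against 3.17% of all 32851 promoters. A motif of the glucocorticoid receptor type, ACANNNTGTTCT, was found in 2 (3.92%), those of Trim63 and Sgk1, against 0.368% of all. The stretches around these matches are shown for 4 of these 5 genes, 5′ to 3′ along the gene's strand, to let the letters be read beside the levels, with both motifs in capitals.
Trim63, plus strand, chr4:134314874-134314972: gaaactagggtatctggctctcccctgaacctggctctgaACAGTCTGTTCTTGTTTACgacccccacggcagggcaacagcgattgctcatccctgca
Sgk1, plus strand, chr10:21993661-21993755: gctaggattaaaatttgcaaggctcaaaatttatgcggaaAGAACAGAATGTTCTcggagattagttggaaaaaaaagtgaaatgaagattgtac
Klf9, plus strand, chr19:23141086-23141172: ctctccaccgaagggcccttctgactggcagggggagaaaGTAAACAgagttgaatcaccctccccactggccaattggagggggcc
Txnip, plus strand, chr3:96557796-96557882: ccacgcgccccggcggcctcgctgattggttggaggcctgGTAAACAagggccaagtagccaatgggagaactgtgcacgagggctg

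In the Trim63 stretch the receptor-type motif ends at base 195 before the start and the FoxO motif begins at base 194, so that they adjoin without sharing a base. In Sgk1 the receptor-type motif is present on both strands and the matches overlap. Klf9 and Txnip carry the FoxO motif on the reverse strand, where it reads GTAAACA. Sgk1, a kinase gene of salt and glucose transport, was at 8.80 in Control and 9.78 in Diabetic, a difference of 0.98, so that the gene with the fullest receptor-type motif was not among those furthest apart. A match of letters is no sign of binding, and among the genes furthest apart Klf15, Pdk4 and Fkbp5 had neither motif in this window.

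Clock genes were unequal. Of 25 measured, 8 (32%) were 2-fold higher and 2 (8%) lower, beside 4.12% and 6.89% of all genes, with a median of 0.63. The repressor gene Nfil3 was at 5.62 and 8.28 with the grafts from 4.70 to 5.48, and Arntl, which encodes the activator BMAL1, was at 5.22 and 6.90 with the grafts from 4.14 to 4.89. Nr1d1, which encodes the BMAL1 repressor REV-ERB alpha, was also higher, at 5.33 and 7.20, as was Cry2, at 5.19 and 7.27. The output gene Dbp, which in clock-driven tissue peaks in opposition to Nfil3, was lower, at 7.16 and 5.66, below all 8 grafts (6.94 to 8.10). Per1, a clock gene that also answers to glucocorticoids, differed by 1.23 and Per2 by 0.72, while Clock differed by -0.05. Since the hour of sampling is not given, the time of day and the condition cannot be told apart for these genes.

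Muscle genes were higher in Diabetic. All 51 fast fibre genes measured were above their Control level and 29 (56.9%) were 2-fold higher, with a median of 1.04 against -0.46 to -0.00 in the graft pairs. Of 25 slow fibre and cardiac type genes, 15 (60.0%) were 2-fold higher and 1 lower, with a median of 1.24. Some common markers of muscle, with high levels of 11.66 to 12.65 in Control, lay less than 2-fold apart. Acta1 differed by 0.22, Ckm, the muscle creatine kinase, by 0.48, and Tnnt3, the fast troponin T, by 0.65. Whether the array signal was near its upper limit at these levels was not tested. Among the fibre genes furthest apart, Nrap, which anchors actin filaments, was at 7.07 and 9.39, Myoz2, a Z-disc protein of slow fibres, at 7.08 and 9.48, and the light chain kinase gene Mylk2 at 6.24 and 8.67. The slow myosin gene Myh7 was at 8.39 and 10.33, above all grafts. Trim63 had the largest difference of the fast fibre list, at 4.26 against the list's median of 1.04, and Fbxo32 lay at 1.94. Control lay below all 8 grafts in 23 of the 51 fast fibre genes (45.1%), and Diabetic above all 8 in 33. Over all genes these shares were 17.5% and 22.7%, so the contrast drew on both arrays. The share of muscle in each biopsy was not measured apart from these genes.

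**Figure D2:**
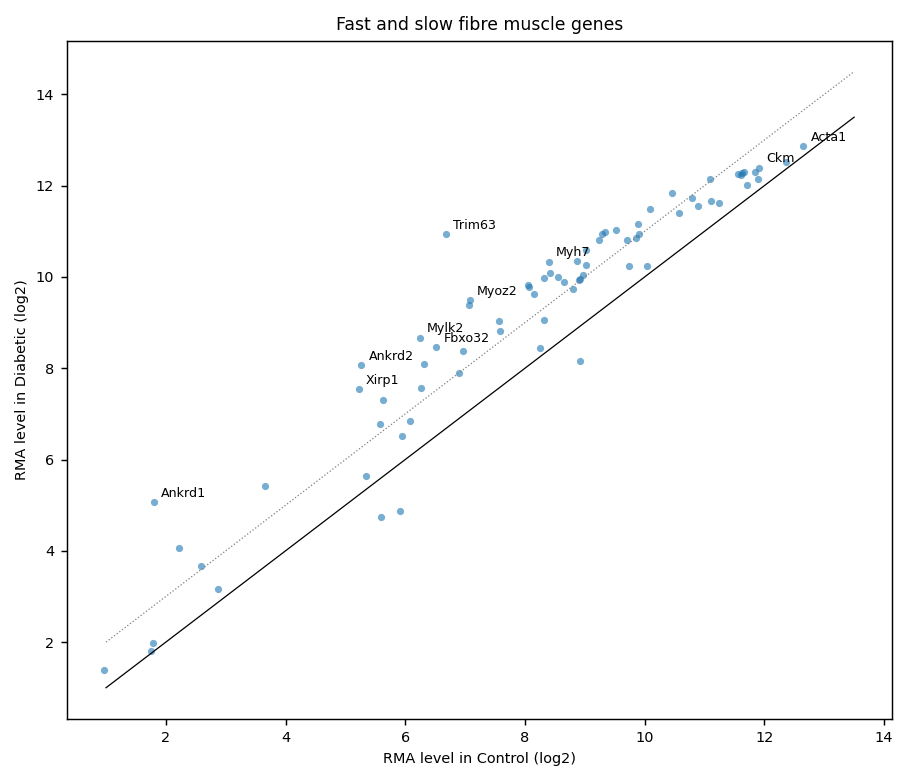
RMA levels (log2) of the fast and slow fibre muscle genes in Control (x axis) and Diabetic (y axis), each point a gene. The solid line marks equal levels and the dotted line a 2-fold higher level in Diabetic; Trim63, at 6.67 and 10.93, lies furthest above the dotted line, and Acta1 lies near the solid line.

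Genes of glycolysis and glucose uptake were more often higher than lower. Of 30 genes of glycolysis and glucose uptake, 9 (30.0%) were 2-fold higher and 2 lower, with a median of 0.53. The insulin-regulated glucose transporter gene Slc2a4 (GLUT4) was at 6.81 and 8.39 and hexokinase 2 (Hk2) at 8.04 and 9.61, both above all grafts in Diabetic. The glycogen genes Gbe1, at 4.78 and 6.75, and Gys1, at 6.84 and 8.16, were higher as well. The phosphofructokinase gene of muscle, Pfkm, differed by 1.39, and that of liver, Pfkl, by -1.41, while the muscle phosphoglycerate mutase gene Pgam2 differed by 0.20. The widespread transporter gene Slc2a1 (GLUT1) differed by -0.28, and Slc2a3 (GLUT3), among the 15 genes furthest up, by 2.93. The transcriptional coactivator gene Ppargc1a, a regulator of oxidative metabolism, was at 4.11 and 6.76, and the mitochondrial uncoupling protein gene Ucp3 at 4.16 and 6.32. None of 47 respiratory chain genes lay 2-fold apart, and their median was 0.17.

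Genes of the insulin and IGF pathway were above their Control level more often than below it, 24 against 12. Of the 36 genes, 7 (19.4%) were 2-fold higher and 1 (2.78%) lower, beside 4.12% and 6.89% of all genes. The median was 0.26. The insulin receptor gene Insr was at 5.52 and 6.70, with the grafts from 5.31 to 5.90, and the adaptor genes Irs2 and Pik3r1 differed by 1.15 and 1.57. Irs1 differed by 0.15 and the kinase genes Akt1 and Akt2 by -0.08 and 0.39. Igf1 was at 6.17 and 5.40, both below the 6.88 to 8.62 of the grafts, and Igfbp2, a binding protein of IGFs, was at 7.09 and 4.96, whereas the binding protein gene Igfbp6 was at 6.42 and 7.22.

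Lipid and sterol synthesis genes were lower. All 20 cholesterol genes were below their Control level and 11 (55.0%) were 2-fold lower, with a median of -1.14 against -0.43 to -0.11 in the graft pairs. Idi1, the isomerase of the isoprenoid units, was at 8.65 and 6.25 with the grafts from 6.66 to 7.98. The sterol enzyme genes Nsdhl and Msmo1 were at 7.70 and 5.38 and at 9.18 and 7.11. The gene of the sterol sensor partner Insig1 and the SREBP-2 gene Srebf2 differed less, by -0.66 and -0.48. Control was above all 8 grafts in 18 of the 20 genes, and Diabetic below all 8 in 3, beside 21.9% and 22.5% of all genes. For most of the 20 the Diabetic array thus lay within the range of the grafts.

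Of 27 fatty acid and triglyceride synthesis genes, 8 (29.6%) were 2-fold lower and 1 higher. The citrate cleavage enzyme gene Acly was at 9.27 and 7.91, the fatty acid synthase gene Fasn at 8.63 and 7.44, and the elongase gene Elovl6 at 9.19 and 7.46. Srebf1, which encodes their activator SREBP-1, was at 7.34 on both arrays. The exception was Lpin1, a phosphatidate phosphatase that also coactivates fat oxidation genes and is induced by glucocorticoids, at 6.06 and 8.99. Genes of fat breakdown and storage differed in direction, since the triglyceride lipase gene Pnpla2 was at 6.24 and 8.04 and the droplet coat genes Plin4 and Plin2 differed by 2.31 and -1.55. The adipocyte list held 3 of 27 genes (11.1%) that were 2-fold higher and 7 (25.9%) that were lower, beside 4.12% and 6.89% of all genes. Its median of -0.34 lay inside the -0.54 to 0.40 of the graft pairs.

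The CCAAT box, searched as CCAAT on both strands, was present in 16 of the 19 promoters of cholesterol genes (84.2%), against 33.8% of all promoters and 51.0% of those of the glucocorticoid and FoxO list. It is known as the binding sequence of NF-Y, a partner of SREBP at sterol genes. Promoter stretches of the pair of genes furthest down are shown with each CCAAT or its reverse, ATTGG, in capitals.
Idi1, plus strand, chr13:8885521-8885605: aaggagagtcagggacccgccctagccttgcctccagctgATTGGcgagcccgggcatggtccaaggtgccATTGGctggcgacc
Nsdhl, plus strand, chrX:72918372-72918520: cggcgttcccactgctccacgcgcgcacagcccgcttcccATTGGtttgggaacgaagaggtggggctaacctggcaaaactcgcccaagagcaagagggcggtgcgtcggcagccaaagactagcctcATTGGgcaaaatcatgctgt

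Both stretches hold the box on the reverse strand and at more than 1 place. The share refers to letters in the window, and nothing was measured of the factor.

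Epidermal genes were lower, and those of activated epidermis most of all. Of 22 genes of wound-activated epidermis, 14 (63.6%) were 2-fold lower, 7 of them 4-fold, and 1 was higher. Their median was -1.47, against -0.38 to 1.04 in the graft pairs. Krt6a, Krt6b and Krt16, keratins of the hair follicle and of hyperproliferative epidermis, stood at 11.43 and 8.34, at 9.64 and 6.51, and at 9.25 and 6.31. The cornified envelope gene Sprr2h and the stefin gene Stfa3 were at 9.12 and 6.44 and at 9.55 and 6.70. For Krt6a the Diabetic level lay just under the grafts (8.59 to 10.53) and Control above them. Control was above all grafts in 13 of the 22 genes and Diabetic below all in 4, beside 21.9% and 22.5% of all genes. The member that was 2-fold higher was Ereg, an EGF receptor ligand, at 6.76 and 7.79.

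The keratins of ordinary epidermis were unequal. In the basal layer, Krt14 was at 11.87 and 9.66 and Krt5 at 11.33 and 9.64, but Krt15 differed by -0.04, and in the upper layers Krt1 differed by -1.26 and Krt10 by -0.66. Of 51 keratinocyte and barrier genes, 16 (31.4%) were 2-fold lower and 0 higher, with a median of -0.50. Rptn (repetin), a matrix protein of the cornified layer, was at 7.61 and 4.55, and Ivl (involucrin) at 9.23 and 7.42. Over the keratinocyte and barrier list the difference ran from -3.06 for Rptn to 0.52 for Lce1g, a gene of the cornified envelope.

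Sebaceous gland genes were lower too. Of 20 sebaceous gland genes, 11 (55.0%) were 2-fold lower and 1 higher, with a median of -1.28 against -0.48 to 0.04 in the graft pairs. Far2, which makes wax alcohols, was at 8.01 and 5.20, and the lipid genes Cidea and Elovl3 were at 7.64 and 5.41 and at 8.92 and 6.80. Pparg, the regulator of sebocytes and fat cells, was at 4.57 and 3.06 with the grafts from 4.11 to 5.02. Control lay above all grafts in 14 of the 20 genes, beside 21.9% of all genes. Of the 20, Scd1 and Plin2 also serve in fat and liver lipid metabolism, and Scd1 counts in the lipid synthesis list as well.

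Hair keratins had a median of -0.93, with 17 of 38 (44.7%) 2-fold lower and 2 higher. The list varied most among the grafts, where the pair medians ran from -4.73 to 1.98, and its level on both biopsies, 9.34 and 8.42, was at or near the top of the 2.70 to 9.27 of the grafts. Within the list, the cortex keratin gene Krt35 and the root sheath gene Tchh differed by -0.05 and -0.07, and Krt86 and Krt26 by -1.83 and -1.57. On days 3 and 7 the grafts of the same day differed more than the biopsies did, and 1 of the 17 lower genes lay further apart than every same-day graft pair. Over all members, 35 hair matrix and cycle regulators had a median of -0.13. It was 0.15 for 17 dermal papilla genes and -0.08 for 21 genes of sweat and mammary type glands. Yet 10 hair matrix genes (28.6%) and 5 gland genes (23.8%) were 2-fold lower, beside 6.89% of all genes, and 1 of each list was higher. At a level of at least 5 on the higher array, the median was -0.49 over 25 hair matrix genes. There it was 0.40 over 3 dermal papilla genes and -1.33 over 6 gland genes.

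**Figure D3:**
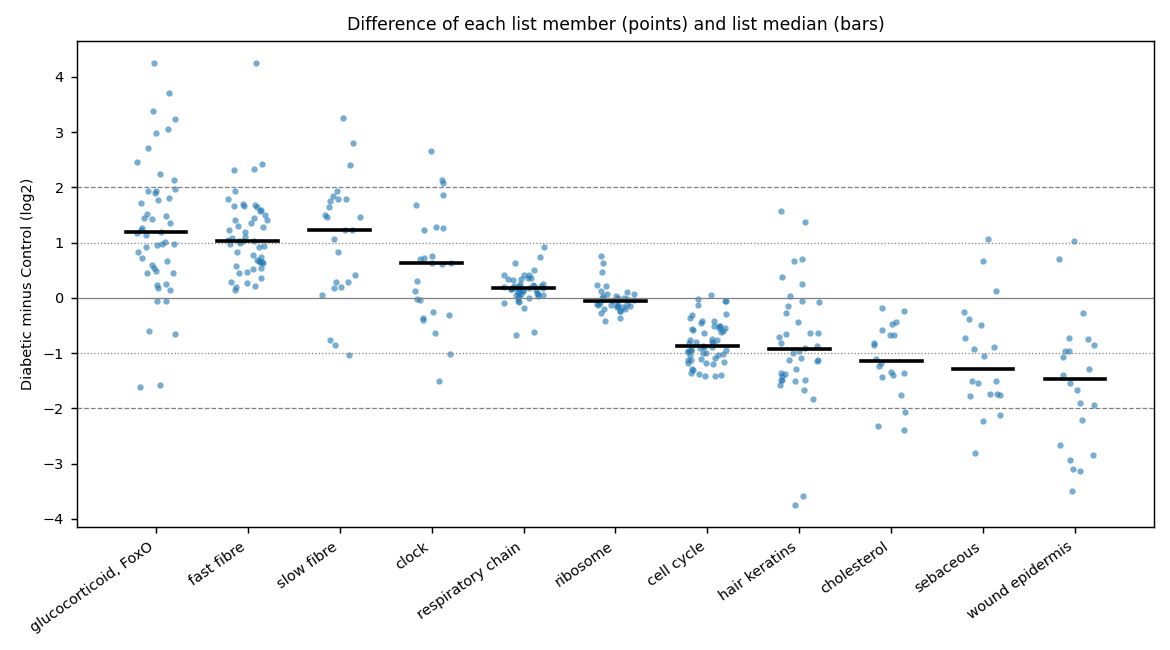
Diabetic minus Control (log2, y axis) for the members of 11 gene lists, each point a gene and each black bar the list median. Dotted and dashed lines mark 2-fold and 4-fold; all fast fibre genes lie above 0, all cholesterol genes below 0, and the respiratory chain genes lie within the dotted lines.

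Proliferation genes were lower in Diabetic. Of 57 cell cycle and replication genes, 56 were below their Control level, 18 (31.6%) were 2-fold lower and 0 higher, and the median was -0.86. In the graft pairs the median ran from -0.86 to 0.15. The replication licensing gene Mcm4 was at 6.67 and 5.28, the ribonucleotide reductase gene Rrm2 at 7.34 and 6.04, and the cyclin D1 gene Ccnd1 at 7.46 and 6.28. Control lay above all grafts in 35 of the 57 genes, beside 21.9% of all genes. Of the growth arrest genes, Gadd45g was at 5.64 and 7.98 and Gadd45a at 5.07 and 6.58, both above all grafts, while Cdkn1a (p21) was at 8.94 and 9.18. Of 35 ribosomal protein and translation genes, 0 lay 2-fold apart in either direction, with a median of -0.06.

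Antigen presentation genes were lower in Diabetic. Of 18 genes of MHC class I presentation, 0 were above their Control level and 3 (16.7%) were 2-fold lower, beside 6.89% of all genes. Their median was -0.59. B2m, the light chain of class I molecules, was at 10.97 and 10.15 with the grafts from 11.04 to 11.28, and the immunoproteasome gene Psmb9 at 6.19 and 4.27. Of 29 dendritic cell and MHC class II genes, 8 (27.6%) were 2-fold lower and 1 higher, and Cd207, the langerin gene of Langerhans cells in the epidermis, was at 5.93 and 3.74. The alarmin gene Il33, expressed in keratinocytes and fibroblasts, was at 5.36 and 2.98, below all grafts on both arrays. In the other direction, Nfkbia, an NF-kappa B inhibitor gene that glucocorticoids induce, was at 9.33 and 10.74. For 54 interferon-stimulated genes the median was -0.29, within the -0.83 to 0.90 of the graft pairs. Both biopsies lay below all grafts for most of them, Control in 45 and Diabetic in 47, beside 17.5% and 22.5% of all genes. Among 30 T and NK cell genes the median was 0.00 and 2 (6.67%) were 2-fold lower, near the 6.89% of all genes. The median level of that list was only 1.98 in Control and 1.89 in Diabetic. Just 2 members had a level of at least 5 on the higher array, with a median of -0.91, so the list says little.

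Metallothionein and Nrf2 target genes were above their Control level in 23 of 42 and below it in 19. At 2-fold, 6 (14.3%) were higher and 2 (4.76%) lower, beside 4.12% and 6.89% of all genes. Their median was 0.15, against -0.14 to 0.13 in the graft pairs. Mt1 and Mt2, metallothioneins that bind zinc and answer to glucocorticoids, were at 8.25 and 10.71 and, with a difference of 1.48, at 9.02 in Control. Control lay below all grafts for Mt1, while Diabetic for Mt1 and both arrays for Mt2 lay within their range. The glutathione peroxidase gene Gpx2 was at 7.08 and 4.46. Of the immediate early factors, Maff was at 4.37 and 6.95 and Nr4a3 at 4.13 and 6.34, above all grafts, whereas Egr3 was at 8.70 and 7.14 and Fos at 7.92 and 6.78. Of 25 islet and endocrine genes measured, 0 lay 2-fold apart, but only 2 of them had a level of at least 5 on the higher array.

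Over the 56 lists, the median was 1 or more in 3 (glucocorticoid and FoxO targets, fast fibre, slow fibre) and -1 or less in 3 (wound-activated epidermis, sebaceous gland, cholesterol). It lay outside the range of the 4 graft pair medians in 35. Collagens and matrix proteins, with a median of -0.03, and the mast cell list, with -0.01, were among those that lay inside it.

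**Figure D4:**
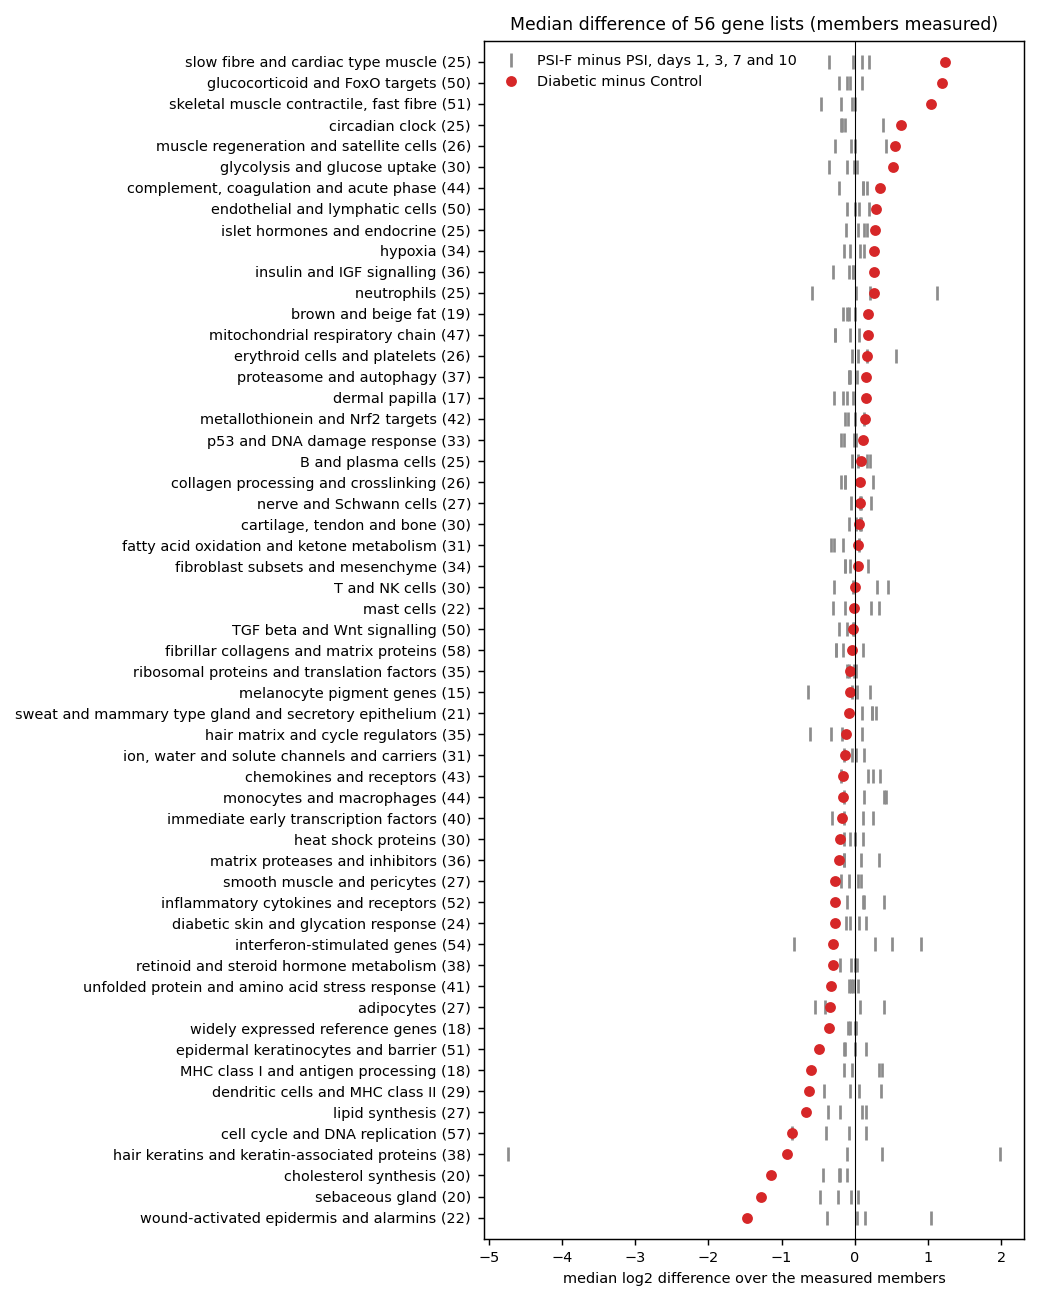
Median difference (log2, x axis) over the measured members of each of the 56 gene lists, with Diabetic minus Control as red points and the 4 same-day PSI-F minus PSI differences as grey marks. The muscle and glucocorticoid lists lie furthest right of their grey marks and the wound epidermis, sebaceous and cholesterol lists furthest left; the hair keratin marks spread from -4.73 to 1.98.

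The Diabetic array also stood apart in ways that no list names. It had 160 genes at least 2-fold above all other 9 arrays and 221 at least 2-fold below them, against 35 and 18 for Control and at most 22 in each direction for any graft array. The nuclear RNA Neat1 was at 10.56 in Control and 7.62 in Diabetic, while the 8 grafts lay between 10.39 and 10.92, yet its other probe set differed by 0.37. The actin gene Actb differed by -1.61 in its brightest probe set and by 1.22 in the other. These values move with every result above, and their part in it was not tested. Added control RNAs were brighter in Diabetic, by a median of 0.52 over 27 poly-A and 0.38 over 18 hybridization probe sets, and 0 of these were 2-fold apart. The 3′ minus 5′ level of Gapdh, a sign of RNA integrity, was 0.03 in Control, 0.25 in Diabetic and from -0.01 to 0.29 over the grafts. For Gapdh the Diabetic value was thus within the range of the grafts. The same measure for Actb was 0.62 in Control, 0.33 in Diabetic and from 0.45 to 0.76 over the grafts. For Actb the Diabetic value was thus below those of all other arrays.

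For some genes named here the probe sets did not point the same way, and the brightest is the one given. The differences ran from -3.06 to 0.40 over 3 probe sets of Rptn, from -1.56 to 0.20 over 2 of Egr3 and from -1.82 to 0.22 over 6 of Acly. They ran from -0.23 to 0.81 over 6 probe sets of Nr3c1, from -0.46 to 0.24 over 2 of Cdkn1a, from -0.63 to 0.43 over 4 of Akt1 and from -0.05 to 0.56 over 4 of Clock. Those genes are uncertain in direction to that extent.

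**Figure D5:**
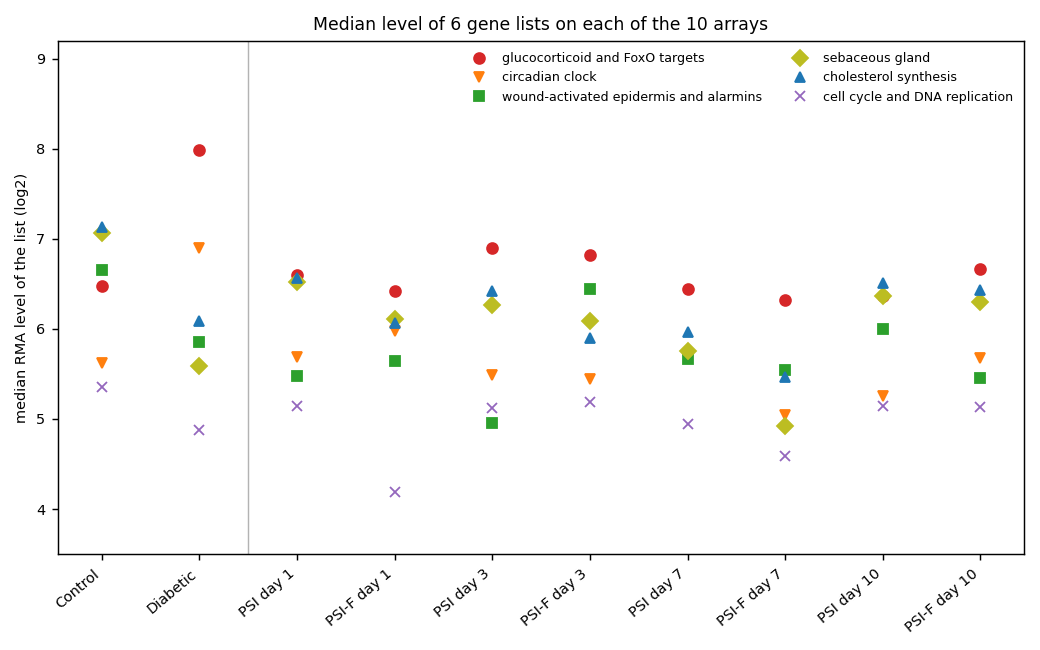
Median RMA level (log2, y axis) of 6 gene lists on each of the 10 arrays (x axis), with both biopsies left of the grey line. The glucocorticoid and FoxO list is at 7.98 in Diabetic and between 6.32 and 6.90 on the other arrays, while the sebaceous and cholesterol lists are highest in Control.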

How the data were processed

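Total RNA of 2 biopsies and 8 grafts, 1 per condition and time, was hybridised to Affymetrix Mouse Genome arrays. The authors deposited log2 levels, summarised and normalized together by RMA, with R 2.15.0 and affy 1.36.0 per the submitters' processing notes. Quantile normalization in RMA gives arrays like distributions, so differences are relative to all probe sets. The number of arrays, not depth, limits the precision.

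Differences, counts and list medians were computed in Python 3.11.15 (pandas 2.3.3), and cyclic loess (3 iterations) in limma 3.58.1. Counting was tested on simulated data. Probe sets were named through the platform annotation: 34945 had 1 symbol, and the 10092 others had several or none and enter only the counts of probe sets. Of 2069 list members named, 1868 were measured. Named genes were the 15 furthest apart in each direction at a level of at least 5, up to 6 members per list by the same measure, and the cell type markers; other genes named were chosen after their values were seen. Members and lists were chosen with earlier results of these data known. The alternatives to these choices were a 2-fold threshold, a level filter, other scalings, other summaries per gene and other yardsticks, and lists without shared members were added after seeing the data.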

Additional observations from a re-analysis of the deposited data

Results flagged for a closer look

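Among the control probe sets left out of the comparison, the middle probe set of Actb was at 9.63 in Control and 8.19 in Diabetic, a difference of -1.44, while the 8 grafts lay between 9.81 and 10.63. The 27 probe sets of the poly-A control RNAs, which are added to each sample in set amounts, had a median difference of 0.52, and 26 of them were brighter in Diabetic.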

How the results depend on the processing

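No paired analysis was possible because each condition had 1 array. At 2-fold the counts of probe sets were 1761 higher and 2502 lower, and with 1 probe set per gene they were 86 and 150 at 4-fold. With a level of at least 5 on the higher array, 209 probe sets were 4-fold lower. Cyclic loess gave 237 and 297. Over the members at that level, the median of the glucocorticoid and FoxO list was 1.35 and that of the sebaceous list -1.55. With the mean of a gene's probe sets, the cholesterol median was -0.83. The other medians of the 10 lists described most kept their sign and moved by less than the SD of the 4 graft pair medians. Over all 56 lists, 26 of 226 recomputed medians moved by that SD or more, 20 of them with the level filter. Among those 20 were the hair matrix, dermal papilla, gland, T and NK cell, mast cell, islet and retinoid lists. Of 90 recomputed differences of the 30 genes named by rank, 80 moved by less than the SD of the graft pair differences and 10 by more, all with the mean of a gene's probe sets; none changed sign. Without its members of the muscle lists, an alternative chosen after seeing the data, the glucocorticoid and FoxO median was 1.18. No alternative replaces a second animal.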

Other observations

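Retinoid and steroid genes held 13 of 38 that were 2-fold lower, against 6.89% of all genes, and 4 that were higher. The retinoic acid binding protein gene Crabp2 was at 8.01 in Control and 5.51 in Diabetic, and Cyp1a1, a detoxifying cytochrome induced by aryl hydrocarbons, at 5.28 and 2.99. Aldh1a1, which makes retinoic acid from retinal, was in contrast at 5.73 and 8.28, above all 8 grafts. In connective tissue, the collagen list had a median of -0.03, but Postn (periostin), a matrix protein of remodelling tissue, was at 9.58 and 7.92, below all 8 grafts in Diabetic. Of 37 proteasome and autophagy genes, 3 (8.11%) were 2-fold higher and 0 lower, beside 4.12% and 6.89% of all genes. A count of 3 is too small to describe the list, and the 3 were the mitophagy receptor gene Bnip3, at 8.02 and 9.78, the cargo receptor gene Sqstm1, at 8.13 and 9.56, and Gabarapl1, at 7.31 and 8.58.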
